A study of Mus musculus with 5 samples.

Results

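Transcription factors that mark or specify the luminal lineage of the mammary gland were followed in bulk RNA sequencing of mouse mammary luminal cells, namely *Gata3*, *Foxa1*, *Elf3*, *Ehf*, *Tbx3*, *Spdef*, *Sox9*, *Sox10*, *Grhl2* and *Trps1*. The 10 genes were chosen by name for their known roles, out of 24319 genes in the expression table, and all 10 were found there under these symbols. The rule itself used no measured values, but the factors were chosen with earlier results of these data known.

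The mammary epithelium has an outer basal layer, which contracts, and an inner luminal layer, which faces the duct and makes milk. Luminal cells are commonly divided into hormone-sensing cells, which carry the estrogen and progesterone receptors, and progenitor or alveolar cells, which lack them and give rise to milk-secreting cells. GATA3 is the best known regulator of luminal fate, FOXA1 opens chromatin for the estrogen receptor, and SOX9 and SOX10 are known from progenitor cells. ELF3, EHF and SPDEF belong to the epithelium-specific branch of the ETS family, and GRHL2 keeps junction genes on.

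The samples were 5 libraries of sorted luminal cells (DAPI-, CD24 high, CD29 low), called Lum1 to Lum5, from mammary gland of mice of mixed strain. The labels give wild type for Lum1, Lum2 and Lum3 and *Brca1* knockout for Lum4 and Lum5, whereas the study's text treats its luminal cells as BRCA1-deficient and describes deletion of floxed *Brca1* by MMTV-Cre, a transgene driven by a mouse mammary tumor virus promoter that is active in mammary epithelium and some other tissues. The study's methods name virgin and pregnant females as sources of gland cells, without a stage for each of these libraries. The part of stage in the results was not tested. Age, pregnancy stage and sequencing run of each library are not given by the labels. Nothing in them says that the libraries came from separate animals, so the p-values below measure the spread between these libraries, which may be technical. Values are FPKM (fragments of a gene, corrected for how long its transcript is and how deeply the library was sequenced), so that levels can be set side by side between genes. Read counts are not part of the table. From the spacing of low values, depth was estimated at 2.11, 4.82, 1.01 and 3.45 times that of Lum1 in Lum2, Lum3, Lum4 and Lum5, so that Lum3 was the deepest by this estimate. For each library the lowest depth that suited the values was taken, since multiples of it can suit them as well. The order of the libraries by depth, and the fragment numbers below, are therefore uncertain.

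The targeted gene did not separate the labels. *Brca1* was at 1.30, 1.32 and 0.234 FPKM in Lum1, Lum2 and Lum3 and at 1.198 and 1.34 FPKM in Lum4 and Lum5. The lowest value was in a library labelled wild type. A value for the whole gene need not show the loss of a part of it, so groups are named below by their labels only. *Krt8*, a luminal keratin, was at 2240 to 3653 FPKM. Of 11 basal genes 4 were under 1 FPKM in every library, among them *Trp63*, a defining gene of basal cells (0.115 to 0.311 FPKM), but others were present, such as the keratin *Krt14* at 3.65 FPKM in Lum3 and 27.7 to 104 FPKM in the rest. Lum3 stood apart from the rest. Across the 11481 genes that averaged 1 FPKM or more over the libraries (the genes tested), Pearson's r of log2(FPKM + 1) was 0.886 to 0.935 among the other 4 libraries and 0.805 to 0.829 between Lum3 and each of them (genes are not independent replicates). Dixon's ratio, the gap from the most extreme library to its nearest neighbour divided by the whole range, placed Lum3 apart at 1212 genes, against 48 to 102 genes for each other library. The main levels, orders and differences below are therefore also given without Lum3.

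Promoter sequence was at hand for 4 of the 10 genes (RefSeq, build GRCm38.p6, 250 bases before to 50 bases after a transcription start). The promoters of *Foxa1*, *Elf3* and *Spdef* are shown, the first 2 because these genes stood apart in Lum3 and the third because it holds the letters of its own family. They are written 5′ to 3′ on the strand of the gene, and capitals mark the letters TGTTTAC, the core read by forkhead factors, or AGGAAG or CGGAAG, cores read by ETS factors, on either strand. *Foxa1* is on the minus strand at chr12:57546062-57546361, *Elf3* on the minus strand at chr1:135258423-135258722, and *Spdef* on the minus strand at chr17:27728902-27729201.

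*Foxa1*: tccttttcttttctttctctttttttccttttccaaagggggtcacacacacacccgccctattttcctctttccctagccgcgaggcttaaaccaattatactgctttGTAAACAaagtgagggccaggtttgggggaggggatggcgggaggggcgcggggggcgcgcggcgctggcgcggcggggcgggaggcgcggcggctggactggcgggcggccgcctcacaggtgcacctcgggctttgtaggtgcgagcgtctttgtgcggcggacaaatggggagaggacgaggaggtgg

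*Elf3*: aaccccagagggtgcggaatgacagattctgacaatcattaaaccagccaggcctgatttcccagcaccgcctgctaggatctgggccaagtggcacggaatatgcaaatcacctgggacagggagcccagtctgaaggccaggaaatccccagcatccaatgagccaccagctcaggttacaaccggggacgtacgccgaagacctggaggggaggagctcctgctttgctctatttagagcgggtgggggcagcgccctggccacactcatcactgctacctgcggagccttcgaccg

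*Spdef*: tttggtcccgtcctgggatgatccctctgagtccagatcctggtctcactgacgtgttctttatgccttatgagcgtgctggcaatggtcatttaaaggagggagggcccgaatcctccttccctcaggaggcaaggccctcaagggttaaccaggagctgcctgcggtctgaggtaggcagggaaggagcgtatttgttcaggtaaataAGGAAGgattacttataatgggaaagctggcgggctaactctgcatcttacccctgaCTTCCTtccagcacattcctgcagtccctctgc

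The *Foxa1* promoter holds 1 match to the forkhead letters, on the opposite strand at position -141 from the start, and 3.65% of 32851 promoters of this length hold such a match. In the *Spdef* promoter there are 2 matches to the ETS letters, which 46.5% of promoters hold. The *Elf3* promoter holds neither, nor do the *Foxa1*, *Elf3* and *Spdef* windows hold AGATAA, the letters read by GATA factors (11.2% of promoters), AACCGGTT, read by Grainyhead factors (0.146%), or TATAAA (13.6%). G and C made up 62.3% of the *Foxa1* window, 59.0% of the *Elf3* window and 53.3% of the *Spdef* window, and the median over all promoters was 52.7%. Matches of letters describe these windows and say nothing about binding in these cells.

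*Foxa1*, the pioneer factor that works with the estrogen receptor in hormone-sensing luminal cells, lies at chr12:57540628-57546916 on the minus strand (GRCm38, which is mm10) and has 2 exons in its longest transcript. It was at 2.01, 1.45 and 33.6 FPKM in Lum1, Lum2 and Lum3 (wild type) and at 0.896 and 1.73 FPKM in Lum4 and Lum5 (*Brca1* knockout). Lum3 alone was high, at 16.8 times the next library, and the other wild type libraries lay among or just above the knockout libraries. In estimated fragments, *Foxa1* had 3225 in Lum3 and 18.1 to 119 in the rest, so its low values rest on few reads.

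*Tbx3*, a T-box factor needed for mammary bud formation and later found in hormone-sensing cells, lies at chr5:119670669-119684724 on the plus strand. Its level was 0.574, 0.495 and 9.29 FPKM in Lum1, Lum2 and Lum3 and 0.260 and 0.169 FPKM in Lum4 and Lum5. Again Lum3 was the one high library, at 16.2 times the next, and both knockout libraries were below all wild type libraries. The values outside Lum3 correspond to an estimated 8.18 to 32.4 fragments. *Tbx3* passed the minimum of 1 FPKM only through Lum3, since its mean over the other 4 libraries was 0.374 FPKM.

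*Gata3*, the zinc finger factor that establishes and keeps luminal fate, lies at chr2:9857078-9890034 on the minus strand. It was expressed in every library, at 39.0, 35.1 and 71.3 FPKM in Lum1, Lum2 and Lum3 and at 45.8 and 47.2 FPKM in Lum4 and Lum5. Lum3 was the highest, by 1.51-fold over Lum5. *Trps1*, an atypical GATA-type repressor known from luminal breast cells, lies at chr15:50654752-50890463 on the minus strand. Its level was 36.4, 24.8 and 32.4 FPKM in the wild type libraries and 39.6 and 43.9 FPKM in the knockout libraries. Here Lum2 was the lowest library, Lum3 lay between the others, and both knockout libraries were above all wild type libraries. The ratio of *Gata3* to *Trps1* within a library was 1.07 to 1.41 in the other 4 libraries and 2.202 in Lum3.

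Of the epithelium-specific ETS factors, *Elf3* (chr1:135253575-135258568, minus strand), which acts in the differentiation of many lining epithelia, was at 45.4, 42.9 and 112.5 FPKM in Lum1, Lum2 and Lum3 and at 50.8 and 45.7 FPKM in Lum4 and Lum5. The 4 other libraries lay within 42.9 to 50.8 FPKM and Lum3 was at 2.21 times the highest of them. *Ehf* (chr2:103263433-103303278, minus strand), a close relative of *Elf3*, was at 85.4, 58.7 and 20.3 FPKM in the wild type libraries and at 95.9 and 76.9 FPKM in the knockout libraries. It took the opposite direction from *Elf3* in Lum3, where it was lowest, and the lowest of the other libraries was at 2.90 times Lum3. Within a library, the ratio of *Elf3* to *Ehf* was 0.532, 0.731, 0.530 and 0.594 in Lum1, Lum2, Lum4 and Lum5 and 5.55 in Lum3. This ratio does not depend on the scaling between libraries. *Spdef* (chr17:27714352-27728955, minus strand), known from secretory goblet cells and luminal breast cells, was low throughout, at 1.57, 0.574 and 2.45 FPKM in the wild type libraries and at 1.47 and 0.540 FPKM in the knockout libraries. Lum3 was highest, Lum2 and Lum5 were low, and outside Lum3 these values correspond to an estimated 14.5 to 22.3 fragments.

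*Sox9* (chr11:112782224-112787760, plus strand), a factor of luminal progenitor and stem cells, had the narrowest range of the 10 over all 5 libraries (without Lum3, *Elf3* and *Grhl2* had narrower ones), at 75.8, 63.5 and 81.6 FPKM in Lum1, Lum2 and Lum3 and at 83.4 and 65.4 FPKM in Lum4 and Lum5. *Sox10* (chr15:79154908-79165240, minus strand), which marks neural crest derivatives and, in the mammary gland, progenitor-like epithelial cells, was at 119, 87.6 and 71.8 FPKM in the wild type libraries and at 113 and 132 FPKM in the knockout libraries. It was lowest in Lum3. Of 7 genes of Schwann cells, a glial lineage in which *Sox10* is also known, 5 were under 1 FPKM in every library. The lowest by mean was *Foxd3*, at most at 0.0141 FPKM. The other genes were *Mbp*, at 20.4 FPKM in Lum3 and 9.38 to 12.4 FPKM elsewhere, and *Cdh19*. *Cdh19* was at 1.88 and 2.07 FPKM in Lum4 and Lum5 and at 0.0505 to 0.549 FPKM elsewhere. The part of such cells in the *Sox10* level was not tested. *Grhl2* (chr15:37233036-37363569, plus strand), the Grainyhead factor that maintains epithelial junction genes, was at 7.87, 10.5 and 6.37 FPKM in the wild type libraries and at 9.42 and 9.53 FPKM in the knockout libraries, lowest in Lum3. *Gata3*, *Tbx3*, *Elf3* and *Grhl2* each share 115 to 169 exon bases with an annotated antisense RNA, and *Gata3* shares 77 exon bases with *9230102O04Rik* on its own strand. The library kit is not one that keeps strand, so fragments of these genes and of their antisense partners cannot be told apart there. *Trps1* shares 25 exon bases with the microRNA gene *Mir1907* on its own strand. *Mir1907* was at 0, 0 and 92.3 FPKM in Lum1, Lum2 and Lum3 and at 1926 and 66.6 FPKM in Lum4 and Lum5. Its part in the *Trps1* level was not tested.

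**Figure D1:**
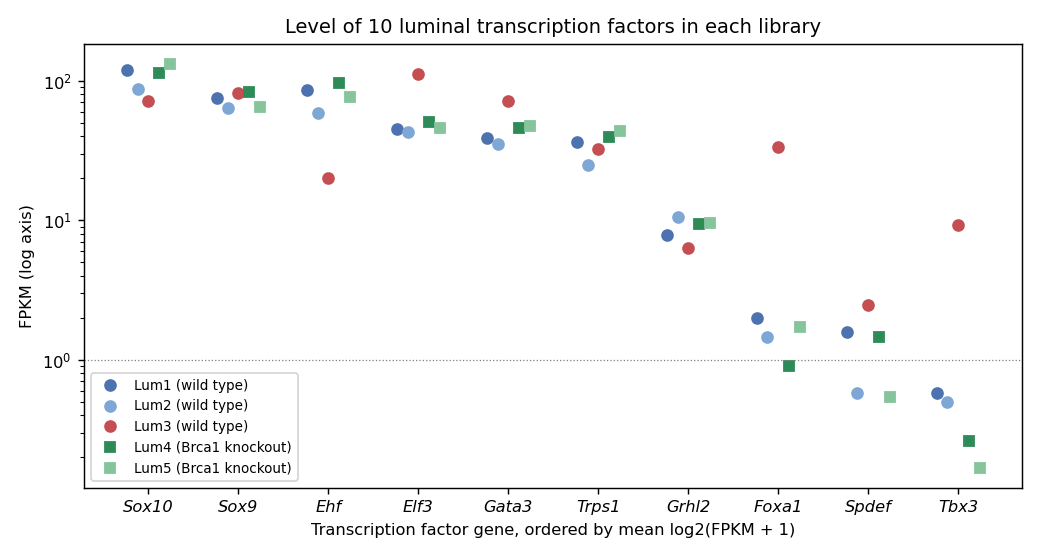
FPKM (log axis) of the 10 factors in each library, circles for libraries labelled wild type and squares for *Brca1* knockout, with genes ordered by their mean and a dotted line at 1 FPKM. *Foxa1* (33.6 FPKM) and *Tbx3* (9.29 FPKM) are far above their other values in Lum3, *Elf3* is also highest there and *Ehf* is lowest there, while *Sox9* keeps within 63.5 to 83.4 FPKM.

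Ordered by the mean of log2(FPKM + 1), with the SD over 5 libraries, *Sox10* came first (6.69 ± 0.35), followed by *Sox9* (6.22 ± 0.18), *Ehf* (5.92 ± 0.89), *Elf3* (5.81 ± 0.57), *Gata3* (5.56 ± 0.38) and *Trps1* (5.16 ± 0.31). *Grhl2* was lower (3.27 ± 0.25), and *Foxa1* (2.07 ± 1.72), *Spdef* (1.15 ± 0.50) and *Tbx3* (1.03 ± 1.32) were last. Between neighbours in this order, the difference within a library exceeded its own SD only for *Sox10* over *Sox9* (0.47, SD 0.43, in 4 of 5 libraries) and for *Trps1* over *Grhl2* (1.90, SD 0.41, in 5 of 5). The other 7 neighbouring pairs did not differ beyond their spread. Without Lum3 the mean levels (n = 4) were 1.31 ± 0.29 for *Foxa1*, 0.45 ± 0.20 for *Tbx3*, 6.30 ± 0.30 for *Ehf*, 5.56 ± 0.10 for *Elf3* and 5.41 ± 0.20 for *Gata3*. Of the same pairs, *Ehf* was then above *Elf3* (0.74, SD 0.22), *Gata3* above *Trps1* (0.22, SD 0.18), *Grhl2* above *Foxa1* (2.05, SD 0.39) and *Spdef* above *Tbx3* (0.54, SD 0.39) in each of the 4 libraries, as *Sox10* was above *Sox9* (0.64, SD 0.26) and *Trps1* above *Grhl2* (1.82, SD 0.44). *Elf3* was above *Gata3* in 3 of 4 (0.15, SD 0.14). Lum3 changed the order itself. *Elf3* led there, and *Foxa1* was 5th of 10, above *Trps1* and *Ehf*. In the other 4 libraries *Sox10* led and *Tbx3* was last. Among all genes, *Foxa1* ranked 1722nd by FPKM in Lum3 and between 9745th and 11230th in the other libraries.

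Lum3 was compared with the mean of the other 4 libraries, on the log2(FPKM + 1) scale. The differences were 3.80 for *Foxa1*, 2.92 for *Tbx3*, 1.27 for *Elf3*, 0.80 for *Spdef* and 0.77 for *Gata3*, then 0.19 for *Sox9* and -0.13 for *Trps1*, and -0.48 for *Grhl2*, -0.63 for *Sox10* and -1.89 for *Ehf*. The median over all genes tested was -0.27. Of the 11481 genes, 117 had a more positive difference than *Foxa1*, 193 than *Tbx3* and 618 than *Elf3*, and 190 had a more negative one than *Ehf*. Lum3 was the highest library for 5 of the 10 factors (*Gata3*, *Foxa1*, *Tbx3*, *Elf3* and *Spdef*), where the background over all genes was 18.5%, and the lowest for 3 (*Ehf*, *Sox10* and *Grhl2*), where the background was 51.8%. By Dixon's ratio for 5 values, Lum3 stood apart on the high side for 3 factors (*Foxa1*, *Tbx3* and *Elf3*) against 3.16% of all genes, and on the low side for 0 against 7.39%. *Tbx3* was tested only because of its Lum3 value, so its place there was set by the filter. Among the 9 factors and 11310 genes that averaged 1 FPKM or more over the other 4 libraries, Lum3 was highest for 4 factors (background 16.5%) and stood apart on the high side for 2 (background 1.93%). *Foxa1*, *Tbx3* and *Elf3* stood apart also at a pseudocount of 0.1 and under both other scalings. *Sox9*, which lay between the others in Lum3, became highest there under median-of-ratios and quantile scaling, and the *Trps1* difference became 0.14 under median-of-ratios scaling.

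**Figure D2:**
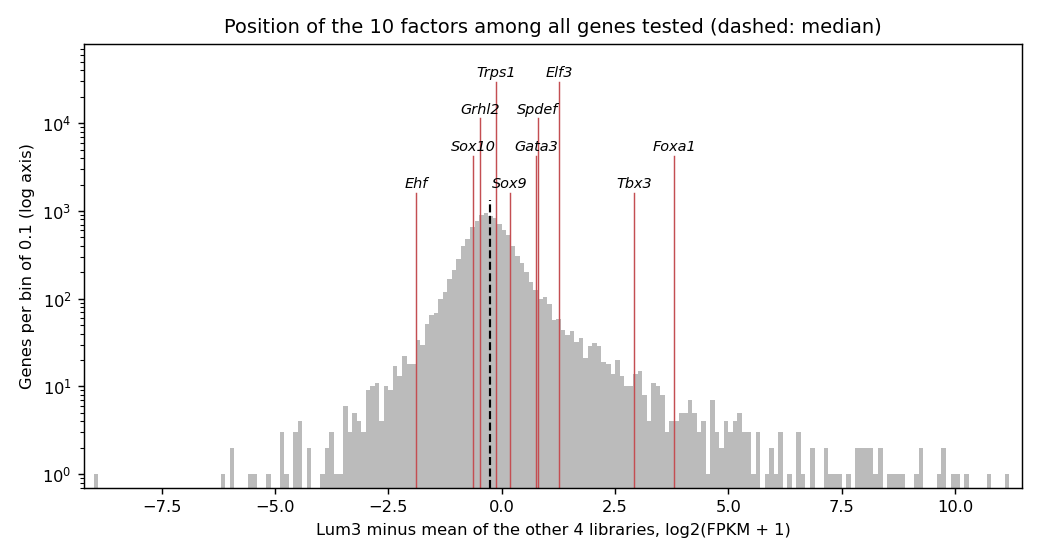
Histogram, over all 11481 genes tested, of the Lum3 level minus the mean of the other 4 libraries in log2(FPKM + 1), with the number of genes per bin of 0.1 on a log axis. Red lines mark the 10 factors and the dashed line the median (-0.27), with *Foxa1* (3.80) and *Tbx3* (2.92) far out in the right tail, *Ehf* (-1.89) in the left tail, and *Grhl2*, *Trps1*, *Sox10* and *Sox9* near the middle.

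Knockout and wild type labels were then compared to ask whether the lineage factors differed with *Brca1* status. None of the 10 did by limma with Benjamini-Hochberg adjustment over 11481 genes. Of all genes, 0 were called (0%), 372 had an unadjusted p under 0.05 (789 of 11310 genes without Lum3), and the smallest adjusted p was 0.92 (0.54 without Lum3). None of the 10 factors had an unadjusted p under 0.05. The largest differences were the least certain ones. *Foxa1* differed by -1.48 (SE 1.21, adjusted p = 0.92 by limma) and *Tbx3* by -1.25 (SE 0.92, adjusted p = 0.92), both on the log2(FPKM + 1) scale, which understates the change of low genes. Without Lum3 the *Foxa1* difference shrank to -0.26 (SE 0.29, n = 2 against 2), and *Tbx3* was no longer tested. *Ehf* differed by 0.86 (SE 0.61) with Lum3 and by 0.28 (SE 0.24) without it.

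For *Elf3* the difference was -0.32 (SE 0.46) in all 5 libraries and turned to 0.12 (SE 0.13) without Lum3. *Gata3* differed by 0.01 (SE 0.34) in all libraries, and without Lum3 by 0.32 (SE 0.13, adjusted p = 0.72 by limma, the lowest of 11 alternatives, which reached 1.00). *Trps1* differed by 0.42 (SE 0.22) and *Sox10* by 0.42 (SE 0.27), and without Lum3 these differences were 0.46 (SE 0.22) and 0.25 (SE 0.21). The remaining differences were 0.20 (SE 0.24) for *Grhl2*, 0.01 (SE 0.21) for *Sox9* and -0.31 (SE 0.44) for *Spdef*, and without Lum3 they were 0.05, 0.09 and -0.05. The median difference of all genes tested was 0.11, so the values of *Gata3* and *Sox9* lay below it.

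By whether the libraries of the 2 labels overlapped, 2 of 10 factors were separate, *Trps1* higher and *Tbx3* lower in the knockout libraries, where 23.3% of all genes tested were separate. The exact permutation test over the libraries (two-sided) gave p = 0.2 for both, the smallest that 3 libraries against 2 allow. Without Lum3, 3 of the 9 factors still tested were separate (*Gata3*, *Trps1* and *Elf3*, each higher in the knockout libraries), with a background of 39.1%. With 2 to 3 libraries a label, these data did not detect a difference in any factor, which does not show that the factors were equal.

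**Figure D3:**
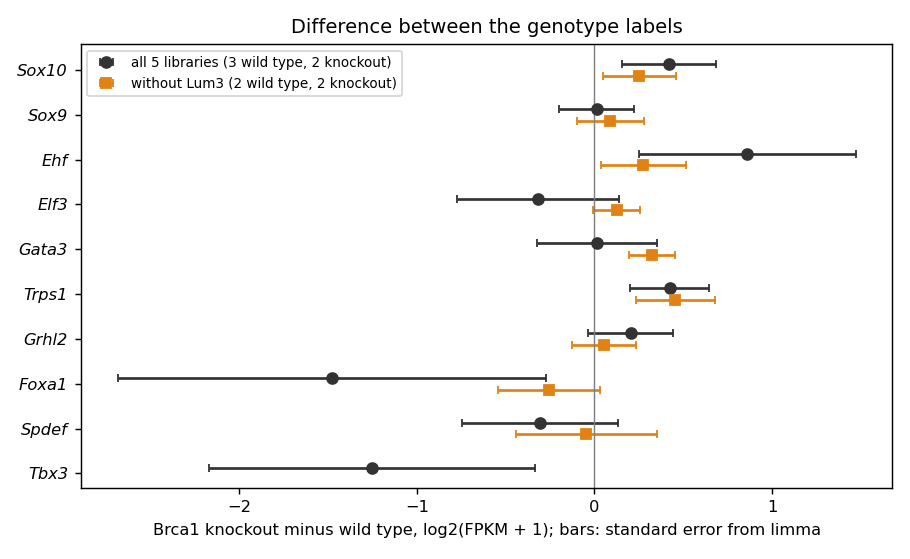
Difference between the *Brca1* knockout and wild type labels in log2(FPKM + 1) for each factor, with standard errors from limma, for all 5 libraries (black circles) and without Lum3 (orange squares, with no value for *Tbx3*). The wide intervals of *Foxa1* (-1.48), *Ehf* (0.86) and *Elf3* (-0.32) narrow once Lum3 is left out, and the *Elf3* value passes from below to above 0.

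For each factor whose log2(FPKM + 1) spanned more than 1 over the 5 libraries, the 3 genes with the smallest distance between centred profiles are given. Nearest to *Tbx3* were *Bmp3* (distance 0.05), a growth factor of the BMP family at 10.3 FPKM in Lum3 and 0.246 to 0.673 FPKM elsewhere, *Msx2* (0.17), a homeobox gene at 10.2 FPKM in Lum3 and 0.340 to 0.917 FPKM elsewhere, and *Egflam* (0.18). Nearest to *Foxa1* were *Aoc1* (0.44), an amine oxidase at 12.98 FPKM in Lum3 and 0.0601 to 0.178 FPKM elsewhere, *Ptpn5* (0.46) and the small nucleolar RNA *Snora47* (0.50). *Evl* (0.17), *Acss1* (0.20) and *Syce2* (0.23) were nearest to *Ehf*, and *Evl*, an actin regulator, was at 3.49 FPKM in Lum3 and 11.0 to 16.7 FPKM elsewhere. *Elf3* had *Ctr9* (0.14), *Adam10* (0.16) and *Plcb1* (0.17), with *Adam10*, a membrane protease, at 57.9 FPKM in Lum3 and 19.8 to 23.8 FPKM elsewhere. For *Gata3* the nearest were *Phka1* (0.08), *Lrch3* (0.11) and *Arhgef2* (0.12), and for *Spdef*, *Map3k6* (0.18), *Dtx3* (0.18) and *Hoxb2* (0.19). With 5 libraries such profiles rest mainly on Lum3, and they were not computed without it. The genes named for *Tbx3* and *Foxa1*, and *Plcb1* and *Hoxb2*, averaged under 1 FPKM outside Lum3. They were tested only because of their Lum3 values, so their high place in Lum3 was set by the filter.

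Relatives of the 10 factors were read in the same libraries. Of 5 other GATA genes none reached a mean of 1 FPKM (*Gata2* came closest, at 0.162 to 2.40 FPKM), and none of 5 relatives of *Foxa1* and *Tbx3* did, the highest being *Tbx2* at 0.155 to 0.759 FPKM. *Gata3* was above each other GATA gene, and *Foxa1* above *Foxa2* and *Foxa3*, in FPKM in each library. Of 23 further ETS genes 16 were tested and 0 were called in either direction. Their most abundant were *Ets2*, at 292, 183 and 372 FPKM in the wild type and 376 and 361 FPKM in the knockout libraries, and *Elf5*, the alveolar regulator, at 338, 258 and 102 FPKM and 244 and 288 FPKM. *Elf5* was lowest in Lum3, as was *Ehf*. Mean levels of the others ran from 1.14 FPKM (*Elk3*) through 1.28 (*Etv4*), 1.52 (*Elf4*), 2.74 (*Etv5*), 2.85 (*Ets1*), 3.02 (*Spi1*), 3.32 (*Elk1*), 8.37 (*Gabpa*), 9.54 (*Elk4*), 10.6 (*Etv3*), 18.3 (*Elf2*), 27.2 (*Erf*) and 35.7 (*Etv6*) to 40.3 FPKM (*Elf1*). *Spi1*, a factor of myeloid cells, was at 12.7 FPKM in Lum2 and 0.131 to 1.65 FPKM elsewhere.

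Of 11 further SOX genes 4 were tested and 0 were called. *Sox4*, known from progenitor and tumor cells, exceeded *Sox10* in 4 libraries in FPKM, at 174, 101, 169 and 231 FPKM in Lum2, Lum3, Lum4 and Lum5, and was at 119 FPKM in Lum1, where *Sox10* was level with it. *Sox13* followed at a mean of 7.76 FPKM, then *Sox12* at 1.54 and *Sox5* at 1.047 FPKM. Of 5 Grainyhead relatives 4 were tested and 0 were called. *Grhl1* was at 38.1, 19.5 and 12.3 FPKM in the wild type and 36.5 and 31.7 FPKM in the knockout libraries, above *Grhl2* in each, and *Grhl3* stayed at 0.0559 to 0.524 FPKM. *Ubp1* (mean 24.6 FPKM), *Tfcp2l1* (4.93 FPKM) and *Tfcp2* (2.03 FPKM) were the others tested.

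Genes tied to the roles of these factors were read from lists, none of whose tested genes were called between the labels. These lists too were chosen with earlier results of these data known. Of 12 hormone-sensing genes, the class in which *Foxa1* and *Tbx3* are known, 10 were tested and 9 of these were highest in Lum3, against the background of 18.5% given above. *Pgr* and *Prom1* were tested only because of their Lum3 values, and of the 8 genes that averaged 1 FPKM or more over the other 4 libraries 7 were highest in Lum3 (background 16.5%). *Areg*, an estrogen-induced growth factor and the highest of the list by mean, was at 13.04, 5.42 and 229 FPKM in Lum1, Lum2 and Lum3 and at 3.58 and 4.15 FPKM in Lum4 and Lum5. *Greb1*, the lowest, was at 0.0402 to 0.157 FPKM. The estrogen and progesterone receptor genes *Esr1* and *Pgr*, picked after their values were seen, were at 9.57 and 27.1 FPKM in Lum3 and at no more than 3.003 and 0.715 FPKM elsewhere. Of 9 luminal progenitor genes, all tested, 6 were highest and 2 were lowest in Lum3 (18.5% and 51.8% of all genes), and the list ran from *Trf* (3343 to 6754 FPKM) to *Itga2* (1.98 to 6.06 FPKM). Of 9 secretory genes, all tested, 8 were lowest and 1 was highest in Lum3 (51.8% and 18.5% of all genes tested). *Csn2*, a milk casein, was at 10570 FPKM there and at 25330 to 31980 FPKM elsewhere, and *Stat5b*, which relays prolactin signals, was at 19.4 FPKM against 22.1 to 36.1 FPKM. The gene that went the other way was *Lalba*, at 599 FPKM in Lum3 and at 130 to 185 FPKM elsewhere.

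A list of 21 epithelial genes, all tested, was read beside *Grhl2* and mixed junction and adhesion genes with keratins and regulatory genes. Of these, 12 were highest and 6 lowest in Lum3 (18.5% and 51.8% of all genes), with *Krt8* the most abundant and *Ovol2* the least (2.73 to 5.16 FPKM). *Grhl2* was lowest in the same library. All 10 proliferation genes were lowest in Lum3, again beside 51.8% of all genes, from *Birc5*, the highest by mean, at 1.18 FPKM there and 17.0 to 26.8 FPKM elsewhere, to *Bub1*, at 0.0620 FPKM there and 1.60 to 3.76 FPKM elsewhere. In bulk libraries, fewer cells of a kind and less RNA per cell cannot be told apart, so a low level of *Foxa1* or *Tbx3* outside Lum3 may stand for few positive cells or for little RNA in many.

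**Figure D4:**
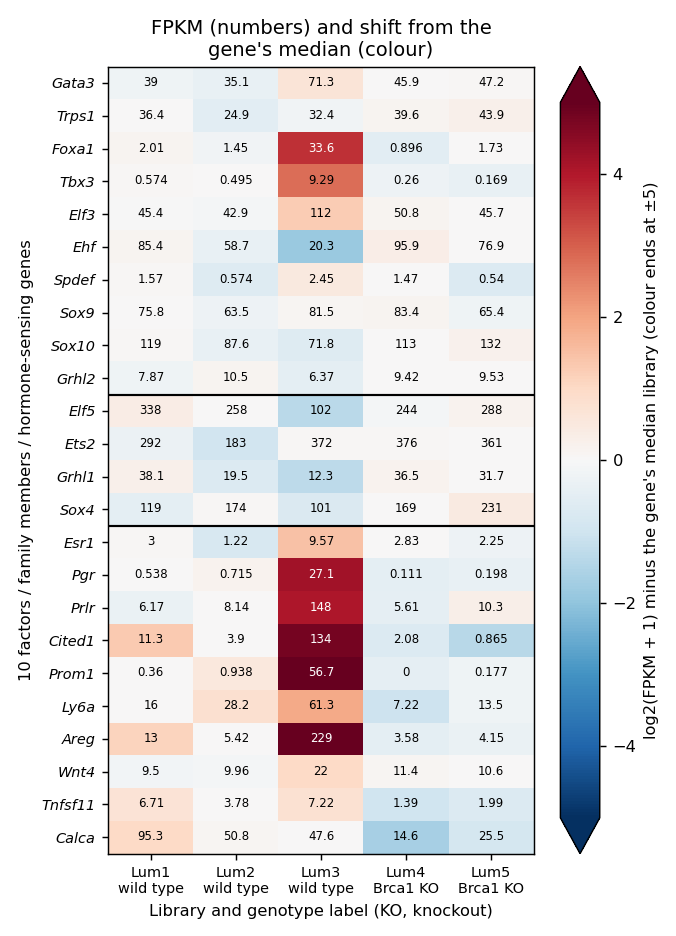
FPKM (numbers) in each library and shift from the gene's median library in log2(FPKM + 1) (colour, saturated at ±5) for the 10 factors, for *Elf5*, *Ets2*, *Grhl1* and *Sox4* as abundant relatives, and for the 10 hormone-sensing genes tested. In the Lum3 column *Foxa1* and *Tbx3* are red together with most hormone-sensing genes such as *Pgr* (27.1 FPKM) and *Areg* (229 FPKM), while *Ehf*, *Elf5* and *Grhl1* are blue.

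Markers of other cells varied between the libraries as well. The summed FPKM of 12 immune genes was 6.11, 338 and 69.1 in Lum1, Lum2 and Lum3 and 2.85 and 9.22 in Lum4 and Lum5, that of 7 fibroblast genes was 2.97, 107 and 84.8 and then 3.88 and 12.5, and that of 6 endothelial genes was 2.37, 9.22 and 22.9 and then 1.76 and 0.771. Lum2 and Lum3 were high for each of the 3 lists. Basal genes (11, with *Trp63* under 1 FPKM in all libraries) summed to 75.9, 142 and 14.6 FPKM and then to 45.2 and 67.4 FPKM. This sum was lowest in Lum3, but *Krt14*, the highest of the list by mean, weighs heavily in it. Of the 11 genes 3 were lowest and 1 was highest in Lum3. The list's median log2(FPKM + 1) was 0.46 in Lum3 and lowest in Lum5, at 0.32. The 4 adipocyte genes summed to under 1 FPKM in each library, with *Lep* at 0. Lum2, the library highest in the immune list, was the lowest library for 4 of the factors (*Gata3*, *Trps1*, *Elf3* and *Sox9*) and for 15.4% of all genes tested. The part of these cells in the factors' levels was not tested. Estimated depth was also highest in Lum3, and its part in the results was not tested either.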

How the data were processed

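Bulk RNA sequencing of 5 libraries of sorted mouse mammary luminal cells was used, 3 labelled wild type and 2 labelled *Brca1* knockout. The authors aligned paired-end reads to mm10 with TopHat and deposited FPKM values made with Cufflinks. The submitters' processing notes name Trimmomatic 0.35, TopHat2 2.0.13 and Cufflinks 2.2.1. Of 24346 rows, 27 whose gene name had become a date were left out. The sample labels carry an extraction protocol written for frozen tumors, while the study's methods describe sorted luminal cells.

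FPKM were analysed as log2(FPKM + 1). Genes averaging 1 FPKM or more were compared with limma 3.58.1 (lmFit, eBayes with a trend) in R 4.3.3, with Benjamini-Hochberg adjustment and a threshold of 0.05. The fit was also run on simulated libraries with equal noise for all genes and no library apart. That run does not show how the fit behaves with a library such as Lum3. Single values were compared by an exact permutation test (two-sided, smallest p 0.2). A library was taken to stand apart at a Dixon ratio above 0.71. Low FPKM multiplied by transcript length fall on steps, whose size gave an estimate of depth over 873 genes with 1 long GENCODE M21 transcript. Only 52.5% to 58.0% of low values lay within 0.15 of a whole fragment, so counts were not recovered and fragment numbers are approximate. Gene coordinates are those of GENCODE M21.

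The 10 factors are all named. In family lists genes averaging 1 FPKM or more are named, in role lists the highest and lowest by mean, and for each factor with a log2 range above 1 the 3 nearest profiles. The 5 largest rises and falls among called genes would have been named, and there were 0. Other genes were named after their values were seen, and a few listed genes are not reported here. The factors and lists were chosen with earlier results of these data known. Alternatives were a pseudocount of 0.1, 2 other filters, median-of-ratios and quantile scaling, limma without a trend, and each library left out. The overlap of labels without Lum3 and the filter on the other 4 libraries were added after seeing the data. Python 3.11.15 with pandas 2.3.3 and scipy 1.17.1 was used.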

Additional observations from a re-analysis of the deposited data

Results flagged for a closer look

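In 4 genes Lum3 lay far from the other 4 libraries, by the ratio of its gap to the nearest library over the whole range of log2(FPKM + 1), which chance puts over 0.71 in about 5% of groups of 5. The ratio was 0.841 for *Foxa1* and 0.863 for *Tbx3*, with Lum3 the highest library in both. *Tbx3* averaged 0.374 FPKM over the other 4 libraries and was tested only because of its Lum3 value. Its high place in Lum3 was therefore set by the filter, and the rate of 5% does not apply to it. For *Elf3* it was 0.825, with Lum3 the highest, and for *Brca1* it was 0.902, with Lum3, labelled wild type, the lowest at 0.234 FPKM. Lum3 stood apart in the same way at 10.6% of all genes tested, so these 4 flags are not independent of each other. That share includes genes that, as *Tbx3* did, passed the filter only through Lum3.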

How the results depend on the processing

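No paired analysis was possible because the labels do not say which libraries, if any, belong together. Of 108 differences of the factors between the labels under 11 alternatives, 97 kept their direction and 11 turned, and none of the factors was called under any of them. *Gata3* turned to -0.10 and *Sox9* to -0.10 under median-of-ratios scaling, a shift that goes with the median of all genes, which moved by 0.10. Under quantile normalization *Gata3* went from 0.014 to -0.0105 and *Sox9* from 0.0124 to -0.0074. The median of all genes went from 0.109 to 0.039 there, a larger move. Leaving out each library in turn gave -0.18 to 0.32 for *Gata3*, -0.16 to 0.19 for *Sox9*, -0.56 to 0.12 for *Elf3* (0.12 without Lum3) and -0.65 to 0.03 (0.0339, without Lum5) for *Spdef*. The number of genes called ranged from 0 to 14 when 1 library was left out, with 2 without Lum1, 14 without Lum4 and 4 without Lum5, and was 0 under each other alternative. Without Lum4 or Lum5 a single knockout library remains, which is assumed to vary as the wild type libraries do. *Tbx3* had no value without Lum3 and with a filter of 1 FPKM in 2 libraries. At a pseudocount of 0.1 the mean level of *Tbx3* moved to -0.29 and that of *Spdef* to 0.31, and the other 78 of 80 levels moved by less than 1 SD. Leaving out 1 library cannot move a mean by 1 SD over all libraries, so for those alternatives this outcome was fixed in advance. Without Lum3 the mean level fell from 2.07 to 1.31 for *Foxa1* and from 1.03 to 0.45 for *Tbx3*. With 2 or 3 libraries a label, no counts and an estimated 8.18 to 32.4 fragments for *Tbx3* outside Lum3, low levels are imprecise.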
